A study of Mus musculus with 4 samples.

Results

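The HoxA locus was examined for binding of TBX5, a T-box transcription factor, in mouse forelimbs at embryonic day 10.5. The embryos were wild type and of the outbred ICR stock. ChIP-seq, in which DNA bound by a protein is precipitated with an antibody and sequenced, had been carried out on 2 libraries with a polyclonal antibody against TBX5, beside 2 input libraries of sheared chromatin as background. All 4 libraries came from forelimb tissue of unmodified embryos, and no treatment or mutant was compared. The data are 1 list of peaks that passed an irreproducible discovery rate (IDR) of 0.05, a measure of how well replicates agree. The peaks of the locus are those on chromosome 6 whose summit, the position of strongest signal, lies from 51600000 to 53100000, which gave 49 of the 11224 listed peaks.

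The Hoxa genes encode homeodomain transcription factors that pattern the body axis and the limb, and their order along the chromosome follows the order in which they are switched on and the place where they act. The genes at the Hoxa13 end act in the limb: Hoxa9 and Hoxa10 chiefly in the upper segment, Hoxa11 in the forearm and Hoxa13 in the hand and foot. The genes at the other end are best known outside the limb, Hoxa2 in the hindbrain and the pharyngeal arches, Hoxa3 in the glands that derive from those arches, and Hoxa5 in the neck, the thorax and the lung. Hoxa4 and Hoxa7 also pattern the vertebral column. Evx1, a homeobox gene of the gastrula and of spinal cord interneurons, lies beyond Hoxa13. TBX5 is needed for the forelimb bud to form, and enhancers that drive posterior Hoxa genes in the distal limb have been mapped on the Evx1 side of the cluster.

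The positions in the list fit mouse build mm9, in which the Hoxa genes lie at about 52100000 to 52210000, with Hoxa13 at the high end, and Evx1 at about 52260000. The submitters' processing notes and library names give mm10, but on 5 chromosomes a total of 72 summits were placed past the end of the RefSeq protein-coding genes of GRCm38.p6, the assembly behind mm10. Of these summits, 29 were on chromosome 7, up to 7.07 Mb past that end, and 0 were on chromosome 6. The places given here for Hoxa13 and Evx1 rest on the fit to mm9. Positions are therefore printed as deposited, and the bounds of the cluster are approximate. They divide the window into a lower flank of 500 kb, the gene cluster of 110 kb and an upper flank of 890 kb. In the RefSeq gene order of GRCm38.p6, Skap2 is the nearest protein-coding gene outside the Hox family on the lower side, and Evx1, Hibadh, Tax1bp1 and Jazf1 follow Hoxa13 on the upper side. No peak was placed at a single gene, exon, intron or UTR, because no annotation of mm9 was used here.

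Promoter sequences were read from RefSeq (GRCm38.p6) for 9 of the 10 members, which gave 10 promoters of 300 bp, since Hoxa10 has a pair of them. They were searched on both strands for GGTGTGA, a core of the motif that T-box factors recognise. None of the 10 held these letters, which were present in 3.98% of all 32851 promoters of the table. The shorter GGTGTG, chosen after that result and contained in the longer motif, was found in 2 of the 10, those of Hoxa2 and Evx1. This is close to its share of 19.0% in all promoters, so the matches do not set the members apart. The 250 bp before the start site are shown for Hoxa2 and Evx1 because these members hold the shorter motif. They come from opposite ends of the gene series. Capitals mark the match, which is on the opposite strand in both (CACACC).
Hoxa2, minus strand, GRCm38.p6 chr6:52164832-52165081: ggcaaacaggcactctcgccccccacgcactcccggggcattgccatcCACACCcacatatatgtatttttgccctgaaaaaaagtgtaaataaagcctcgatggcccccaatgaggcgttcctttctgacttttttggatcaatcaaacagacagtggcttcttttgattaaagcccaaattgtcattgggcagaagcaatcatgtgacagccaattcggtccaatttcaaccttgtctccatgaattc
Evx1, plus strand, GRCm38.p6 chr6:52313248-52313497: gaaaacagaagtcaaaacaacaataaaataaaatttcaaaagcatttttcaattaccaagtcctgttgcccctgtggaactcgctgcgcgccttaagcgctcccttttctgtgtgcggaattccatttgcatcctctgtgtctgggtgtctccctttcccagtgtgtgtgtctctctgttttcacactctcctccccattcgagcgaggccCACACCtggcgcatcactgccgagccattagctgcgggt
The match begins 202 bp before the start site in Hoxa2 and 39 bp before it in Evx1. The promoters of the members otherwise varied widely in base composition, from 45.7% G and C in Hoxa2 to 81.0% in Hoxa13, with a median of 55.0% against 52.7% for all promoters. They held a median of 13.5 CpG dinucleotides, from 4 in Hoxa9 to 45 in Hoxa13, against a median of 7 in all promoters. These positions are on another build than the peaks, so whether a peak covers either promoter was not tested.

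TBX5 peaks were dense over the Hoxa genes and thinner on either side. The gene cluster held 13 summits, or 11.8 per 100 kb. The lower flank, on the Skap2 side, held 8 summits, or 1.60 per 100 kb. The upper flank, on the side of Evx1, held 28 summits, or 3.15 per 100 kb. The cluster thus took up 7.33% of the window and 26.5% of its peaks, and its density was 7.39 times that of the lower flank and 3.76 times that of the upper flank. Both flanks were in turn denser than the rest of chromosome 6, which held 0.413 summits per 100 kb, by 3.87 times for the lower and 7.62 times for the upper flank. Because the bounds of the cluster are approximate, they were also moved by 50 kb. The count in the cluster was then 9 with the bounds moved up and 8 with them moved down. The ratio to the lower flank was 3.21 and 5.45, and that to the upper flank 2.64 and 1.95, in the same order. These are counts in 1 list that joins both replicates, so no spread between replicates can be attached to them and no test was made.

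**Figure D1:**
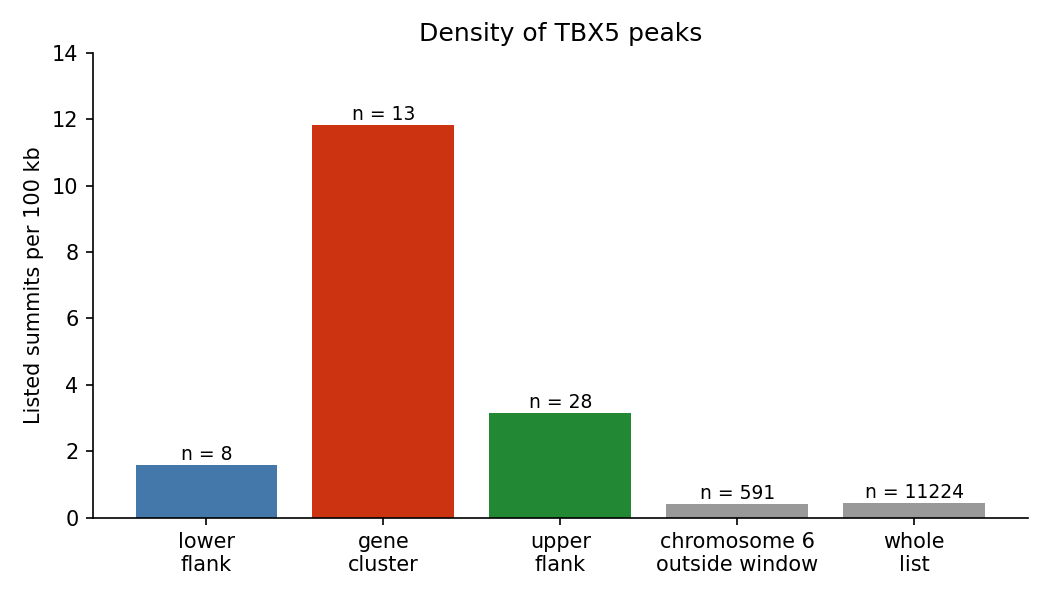
Listed TBX5 summits per 100 kb (vertical axis) in the lower flank, the Hoxa gene cluster, the upper flank, chromosome 6 outside the window and the whole list. Numbers above the bars count summits. The cluster bar stands at 11.8, above 3.15 in the upper and 1.60 in the lower flank, while chromosome 6 outside the window is at 0.413.

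The locus as a whole was among the densest of the list. When every chromosome was divided into consecutive windows of 1500 kb from its first to its last peak, 2 of 1710 windows (0.117%) held 49 or more summits, and the median window held 5. With the divisions moved by 50% of a window, 2 of 1719 did. The count of the gene cluster, 13 or more summits, was reached by 5 of 23138 windows of 110 kb (0.0216%), and by 2 of 23142 with the divisions moved. The median window of 110 kb held 0 summits, and shares at different window lengths are not compared with each other. These ranks describe the list, and windows that cut across the locus are among those counted. The compared windows were fixed divisions, while the bounds of the locus were placed around it with earlier results of these data known. The ranks are thus not an independent measure of how unusual the locus is.

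Blocks of the same length as the cluster were laid outward from its approximate edges and compared with its 13 summits. With the bounds moved by 50 kb the cluster's count was 9 or 8, so the size of the fall depends on the bounds. Only whole blocks were laid, so the outermost part of each flank was left out. In the lower flank that part held the summits at 51657953 and 51659139. The 4 blocks of the lower flank held 0 to 3 summits each, with a median of 1.5. Of the 8 blocks of the upper flank, the first held 2 summits and the next 4 blocks 3 each. Counts rose again farther out, to 6 in the block after these and 8 in the next, and the outermost block held 0.

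**Figure D2:**
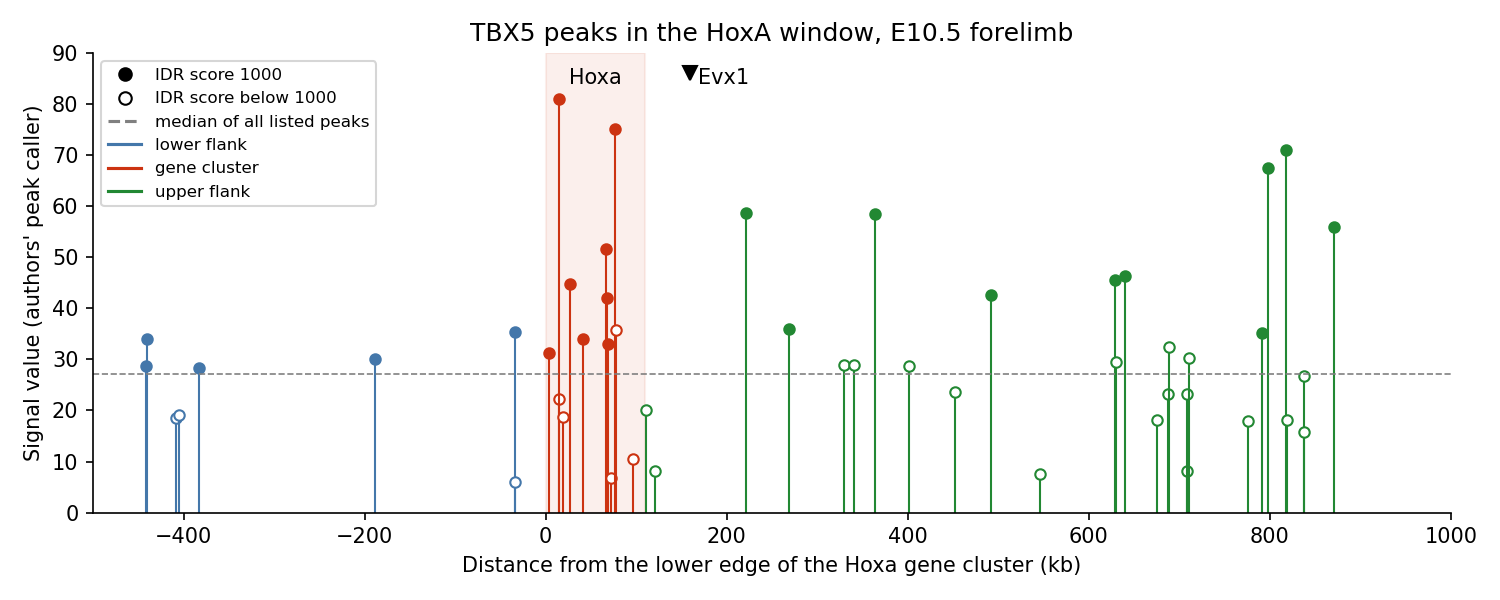
Signal value of each of the 49 TBX5 peaks (vertical axis) against the distance of its summit from the lower edge of the Hoxa gene cluster in kb (horizontal axis). The shaded band is the gene cluster, the triangle marks the approximate place of Evx1, filled points have the highest IDR score of 1000 and the dashed line is the median of all listed peaks, 27.2. Peaks crowd the band, the lower flank stays at or below 35.4, and peaks of the upper flank reach 71.1.

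Inside the cluster, the strongest peak lay near the low end, at chr6:52115089-52115314, with a signal value of 81.0. The signal value is the strength given by the authors' peak caller, on a scale that is not stated, and it is used only to describe and compare peaks within the list. This peak was at the 95.1th percentile of all listed peaks and 2.98 times their median. The next in strength, chr6:52176144-52176464, had a signal of 75.0 (percentile 93.95) and lay 76.3 kb from the low edge. Both reached the highest IDR score of 1000, the mark of the most reproducible peaks. They are also the cluster's only peaks narrower than 416 bp, the most frequent width of the list.

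The remaining peaks of the cluster fell around these. At the low edge, chr6:52103764-52104179 had a signal of 31.2 and a score of 1000. On either side of the strongest peak were chr6:52114370-52114785, 647 bp away with a signal of 22.3 and a score of 886, and chr6:52118642-52119057, with a signal of 18.6 and a score of 622. Farther along, chr6:52126922-52127337 had a signal of 44.8, and chr6:52140787-52141202 stood alone with a signal of 34.0, both at a score of 1000. Both neighbours of the strongest peak were thus below the list's median of 27.2, and the next peaks along were above it.

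The largest group of summits at most 10 kb apart in the window lay in the upper-middle part of the cluster, where 6 summits fell within 11.3 kb. It began with chr6:52166608-52167023, with a signal of 51.5, and chr6:52167231-52167646, 623 bp on, with a signal of 42.1. Next came chr6:52168551-52168966 with a signal of 33.1, and all 3 had a score of 1000. The weak chr6:52172190-52172605, with a signal of 6.72 (percentile 1.67), had a score of 742 and a q-value of 0.563. The peak of signal 75.0 followed, and the group ended with chr6:52177880-52178295 at a signal of 35.7 and a score of 806. Summits at most 10 kb apart formed 5 groups in the cluster, and the other sizeable one had 4 summits over 12.6 kb around the peak of signal 81.0.

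**Figure D3:**
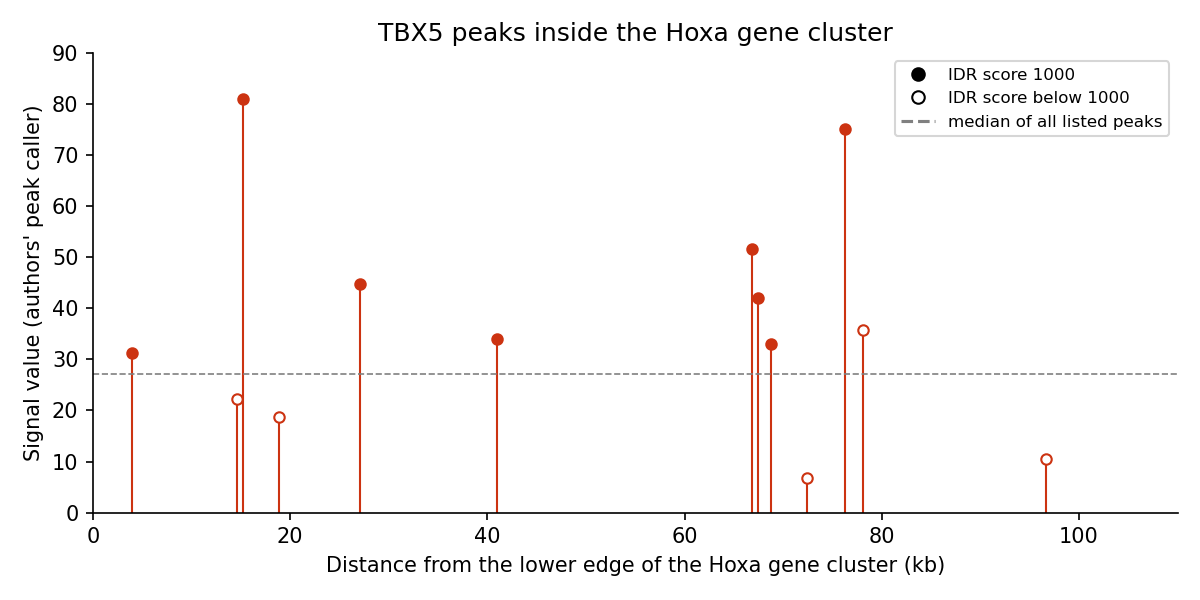
Signal value (vertical axis) of the 13 TBX5 peaks in the Hoxa gene cluster against distance from its lower edge in kb (horizontal axis). Filled points have an IDR score of 1000, open points a lower one, and the dashed line is the median of all listed peaks. Strong peaks stand at 15.2 and 76.3 kb, and the last 31.9 kb hold 1 peak, with a signal of 10.6.

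Few peaks lay at the outer end of the cluster, on the side of Hoxa13. Beyond the group of 6, the last 31.9 kb of the cluster held a single peak, chr6:52196465-52196880, with a signal of 10.6 (percentile 5.86), a score of 725 and a q-value of 0.0602. Just past the edge, by 1.27 kb, lay chr6:52211059-52211474, with a signal of 20.1 (percentile 24.4) and a score of 631. It was followed by chr6:52220701-52221116, with a signal of 8.20 (percentile 3.26), a score of 564 and a q-value of 0.303. These 3 peaks were the only ones in the 143.1 kb from the summit at 52178088 to that at 52321184, and none reached a score of 1000. This stretch was singled out after its values were seen. Its upper part, 100.3 kb without any listed summit, includes the approximate place of Evx1, whose nearest listed summits were 39.1 kb below and 61.2 kb above. A site too weak to pass the IDR threshold would not be listed, and read depth is unknown, so binding below that level was not detectable here.

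In equal parts of 36.7 kb, the low and middle parts of the cluster held 5 summits each and the high part 3. The median signals of these parts were 31.2, 34.0 and 35.7, and the high part reached its median through the peaks at its inner edge.

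The upper flank opened, past the empty stretch around Evx1, with a strong peak at chr6:52321082-52321236, with a signal of 58.8 (percentile 88.9) and a score of 1000. Its strongest peaks lay 688 to 708 kb beyond the cluster. These were chr6:52917679-52918006, with a signal of 71.1 (percentile 92.98), and chr6:52898074-52898240, with a signal of 67.4 (percentile 92.1). The other peaks among its 5 strongest were chr6:52463696-52464111, with a signal of 58.5, and chr6:52970397-52970812, with a signal of 55.98, and all 5 had a score of 1000. The remaining 23 peaks of the upper flank had signals from 7.60 to 46.3. Summits at most 10 kb apart formed 20 groups in this flank, of which 13 were single summits and the largest had 3.

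The lower flank held no peak of comparable strength. Its strongest, chr6:52065849-52066264, had a signal of 35.4 (percentile 68.3) and lay 33.9 kb below the cluster, and it is also one of the pair nearest to the cluster on that side. Next were chr6:51658931-51659346 with a signal of 34.0, chr6:51911102-51911517 with 30.1, chr6:51657745-51658160 with 28.6 and chr6:51717367-51717782 with 28.4. All 5 had a score of 1000. The other 3 had signals of 6.03, 18.6 and 19.1. The longest stretches of the window without a summit were here, 193.7 kb and 154.7 kb on either side of the summit at 51911310. Compared with this, the largest gap within the cluster was 25.8 kb.

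Signal differed less between the compartments than density did. The median signal was 34.0 in the cluster (range 6.72 to 81.0, n = 13 peaks), 28.5 in the lower flank (6.03 to 35.4, n = 8) and 28.9 in the upper flank (7.60 to 71.1, n = 28). The cluster's median exceeded that of both flanks together by 5.15, or 1.18 times. Signals of single peaks varied by more (SD 22.2 in the cluster and 16.3 in the flanks). That SD does not measure the uncertainty of a median. The ranges of all compartments overlapped. In the whole list 25% of peaks lie at a signal of 39.96 or more, and 10% at 61.3 or more. The first of these limits was reached by 5 of the 13 cluster peaks (38.5%), 8 of the 28 in the upper flank (28.6%) and 0 of the 8 in the lower flank. The higher limit was reached by 2 peaks of the cluster, 2 of the upper flank and 0 of the lower flank. Over the window as a whole these shares were 26.5% and 8.16%, near those of the list.

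**Figure D4:**
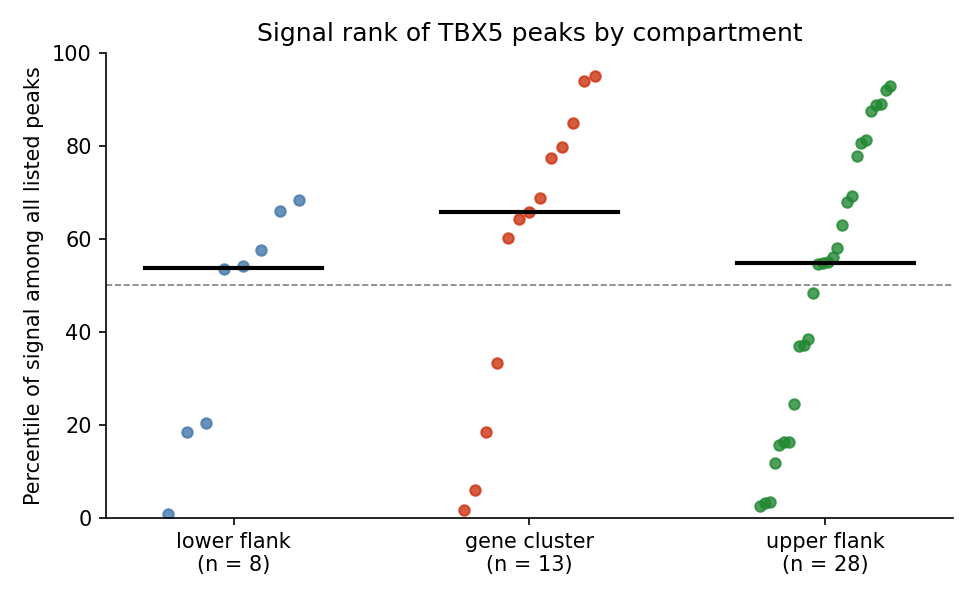
Percentile of the signal value among all 11224 listed peaks (vertical axis) for the peaks of the lower flank, the gene cluster and the upper flank, sorted within each compartment. Bars are medians, and the dashed line is the middle of the list. Lower-flank peaks end at 68.3, while the cluster reaches 95.1 and the upper flank 92.98, and all 3 compartments also hold peaks below the 4th percentile.

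Reproducibility was recorded as the IDR score, which is read here as agreement between the replicates. Whether reads were pooled before that step is not given. In the whole list 45.4% of peaks reached the highest score of 1000, and in the window 23 of 49 did (46.9%), which is close to that share. By compartment, 8 of 13 peaks in the cluster (61.5%), 5 of 8 in the lower flank (62.5%) and 10 of 28 in the upper flank (35.7%) did so. An IDR of 0.01 or below, reached by 60% of the list, was reached by 9 peaks of the cluster (69.2%), 6 of the lower flank (75.0%) and 17 of the upper flank (60.7%). The peak caller's own q-value was above 0.05 for 6 of the 49 peaks (12.2%), against 6.07% of the list. Of these, 2 lay in the cluster, 1 in the lower flank and 3 in the upper flank, and their signals did not exceed 10.6.

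Summits of the cluster lay close together. The median distance from a summit to its nearest neighbour was 1.78 kb in the cluster, 2.07 kb in the lower flank and 9.64 kb in the upper flank, against 17.6 kb over the whole list. The lower flank's value comes from 3 close pairs separated by long empty stretches, and its median gap between successive summits was 22.98 kb, against 3.78 kb in the cluster and 19.7 kb in the upper flank. Another summit lay within 10 kb of 10 of the 13 cluster peaks, 6 of 8 in the lower flank and 15 of 28 in the upper flank, against 42.7% of the list. A denser stretch brings summits closer by itself, so these shares and the density are not separate results.

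The count in the cluster held no very close summits. No cluster summit had another within 500 bp, whereas 20.1% of the list did. The closest pair in the cluster was 623 bp apart. The flanks held 3 such pairs. In the lower flank, the summit at 52066057 with a signal of 35.4 had a second one 201 bp on with a signal of 6.03, and their intervals overlapped. In the upper flank, summits at 52937808 and 52938025, 217 bp apart with signals of 26.7 and 15.8, also overlapped, while those at 52808472 and 52808972 were 500 bp apart with signals of 8.14 and 23.2.

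Of the 49 peaks, 43 had the most frequent width of 416 bp, with signals from 6.03 to 58.5. The other 6 (12.2%, against 15.7% of the list) were narrower, 155 to 328 bp, and had signals from 45.6 to 81.0. Of these, 2 were the strongest peaks of the cluster and 4 lay in the upper flank.

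No listed summit lay within 57.95 kb of either edge of the window. Only the nearest peak on each side of an edge was examined, so whether the raised density continues outside was not tested. The first peak inside the window, chr6:51657745-51658160, had a signal of 28.6. The nearest one below the window, chr6:51538608-51539023, lay 61.2 kb outside it with a signal of 39.7. At the upper edge, the last peak inside was 129.4 kb from it, with a signal of 55.98, and the next one above, chr6:53199584-53199999, was 99.8 kb outside with a signal of 35.8.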

How the data were processed

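TBX5 ChIP and input libraries were grouped by their titles, 2 in each group, sequenced as single-end 75 bp reads per the labels' protocols. The 1 deposited list, without a header, has 10 columns in narrowPeak layout and no value for a single library. The deposited IDR score follows the usual scaling (-125 × log2(IDR), at most 1000). The deposited signal value is the peak caller's strength of each peak, on a scale not given in the sources used here. Significance is deposited as a −log10 q-value of each peak, while p-values are coded -1, meaning not given. FastQC and mm10 are named in the submitters' processing notes. Aligner, peak caller, settings and any pooling are not given in the sources used here. Such steps affect both the choice of peaks and their strength, and depth per library is unknown.

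Positions are 1-based. Peaks were counted by summit in Python 3.11.15 with NumPy 2.4.6 and pandas 2.3.3. Plots used matplotlib 3.10.9. The counting and joining steps were tested on simulated data and recovered the planted counts in 20 of 20 lists. Densities outside the window use the span from first to last summit of a chromosome. All comparisons are descriptions without a test, since peaks are not replicates. Named items are the 10 members, every peak of the cluster, the 5 strongest of each flank and the peaks nearest to the cluster. The members, bounds and settings were chosen with earlier results of these data known.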

Additional observations from a re-analysis of the deposited data

How the results depend on the processing

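Of 96 alternative values, 84 stayed within 1.5 times the main value and 12 moved farther. Of the ratios, 0 changed direction, and counts have no direction to change. Some values could not move, such as the cluster's count when only the flanks were cut. The tally is thus a description only. The number of peaks in the window, 49, was 32 with the IDR limited to 0.01 and 30 in the higher 50% of signal, and lay between 42 and 46 in the other 4 settings. The density of the cluster relative to both flanks, 4.56, lay between 3.26 and 6.75 in the 8 planned settings. It was 2.84 with the cluster bounds moved up by 50 kb and 2.47 with them moved down, settings added after the data were seen because the bounds are approximate. The number of peaks in the cluster, 13, was 8 with the bounds moved down and lay between 9 and 17 in the other settings. The cluster's density relative to the upper flank, 3.76, was 5.91 with flanks of 200 kb and 1.95 with the bounds moved down, and relative to the lower flank, 7.39, it was 3.21 with the bounds moved up. The upper flank's density relative to the lower, 1.97, was then 1.22. The ratio of median signals, cluster to both flanks, lay between 1.12 and 1.24 in all 10 settings. Another summit lay within 10 kb of 31 of the 49 peaks. At an IDR of 0.01 or below this held for 14 of 32, and in the higher 50% of signal for 11 of 30. With summits within 1000 bp joined it held for 20 of 42, but joining removes near neighbours by construction. Shares of the whole list under these settings were not computed. The number at the highest score, 23, stayed at 22 or 23, but the stricter IDR limit cannot remove such peaks.

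No paired analysis was possible because both replicates share 1 set of listed values, and leaving out a replicate was not run. Read depth is unknown, so sites missed for lack of reads are not counted.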
